A study of Homo sapiens with 54 samples.

Results

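The comparison described here is of RNA bound to Argonaute in H4 cells after transfection with miR-195 or with a negative control RNA. Its members were the arrays whose titles name an immunoprecipitate (IP) of miR-195 or of the negative control, 3 of each, or 6 of the 54 arrays in the series. H4 is an established human line that the labels call glioneuronal, and every group came from this line, harvested 48 h after transfection of an individual microRNA mimic or of the negative control miRNA from Ambion. RNA was taken from an anti-Argonaute IP (monoclonal antibody 2A8) and in parallel from the total lysate, with 3 biological replicates per transfection. The other IP groups used were miR-16, miR-103, miR-107, miR-320, miR-15b* (the molecule whose titles read miR-15b), miR-107-mut1 and miR-107-mut2, of which the mutants are, like the control, molecules not found in cells. The doses of the mimics and the sequences as transfected were not given in the sources used here, and arrays from a mock IP were not analysed here.

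Argonaute proteins hold a mature microRNA and use it to bind messages, mostly through pairing with the microRNA's seed near its 5′ end, and bound messages are repressed in translation and often degraded. A message can therefore gain level in an Argonaute IP because it is bound more often or because the cell holds more of it. miR-195 belongs with miR-15, miR-16, miR-103 and miR-107 to a group of microRNAs that shares a core in its 5′ part and is known for repressing cell cycle genes such as cyclins and CHEK1.

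The mature sequences, taken from RefSeq on GRCh38.p14, are shown because the comparisons between transfections turn on which seed is shared. Capitals mark the seed, bases 2 to 8 counted from the 5′ end.
miR-195: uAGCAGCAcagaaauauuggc
miR-16: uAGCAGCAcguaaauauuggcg
miR-103: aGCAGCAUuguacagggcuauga
miR-107: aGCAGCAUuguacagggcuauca
miR-15b*: cGAAUCAUuauuugcugcucua
miR-195 lies in MIR195 on the minus strand at chr17:7017667-7017687, and its first 9 bases are those of miR-16, which matches it at 19 of 21 positions. The seeds of miR-195 and miR-16 are the same. miR-103 and miR-107 hold the same AGCAGCA run shifted by 1 base, at their bases 1 to 7, so their seeds differ from that of miR-195. For miR-15b* the longest run shared with miR-195 was 4 bases. The entries for miR-103 and miR-15b* are those that RefSeq lists as miR-103a-3p and miR-15b-3p.

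Levels are RMA values read as log2, with the mean ± SD of 3 arrays where a mean is given, and changes are log2 differences ± SE. No source used here states the base of the logarithm, so each fold holds only if it is 2. Calls were made where limma's p, adjusted by Benjamini-Hochberg across the 11050 genes tested, was below 0.05. All 9 IP groups, 27 arrays, shared 1 estimate of the spread. Array means lay between 3.61 and 3.65 in the IP and between 7.11 and 7.17 in the lysates, so levels were set against each other only within a fraction. Among the IP arrays, miR-15b* replicate 1 stood apart, with a mean correlation of 0.803 to its own group, where the miR-195 and control arrays reached 0.922 to 0.961. It entered the shared spread, so counts and the calls of several genes are also given without it. The labels give equally numbered replicates 1 code in common. The deviations of miR-195 and control IP arrays correlated at 0.32, 0.38 and 0.57 between equal numbers and at -0.40 to 0.10 between others, so the numbers pair these arrays, and the value with the replicate number as a block is given where it changes a call. The array measures no mature microRNA. The probe set of the MIR195 precursor read 2.40 ± 0.33 in the miR-195 IP and 2.40 ± 0.09 in the control IP, and it did not pass the filter on low values.

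As for the cell line, VIM and CD44 were high in the lysate of control cells (12.5 and 12.9), as was the neuronal UCHL1 (12.9). The neuronal markers NEFM and DCX read 5.46 and 5.61 there, and the astrocyte markers GFAP and AQP4 6.51 and 4.60, against an array median of 7.73. Of 17 neuronal markers 4 were above that median, of 17 glial markers 5, and of 13 blood and microglial markers 1. In the IP the mean over the blood and microglial list was 3.17 to 3.31 in the miR-195 arrays and 2.95 to 3.08 in the control arrays, both below the array medians of 3.62 and 3.61, and its part in the results was not tested.

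Argonaute of cells given miR-195 held more message of 6 genes and less of 68 than Argonaute of control cells, 74 genes or 0.67% of those tested. The rises were IL6, PLAU, THBS1, CDH6, CCN1 and CCN2, which encode secreted, matrix or adhesion proteins, and they made 0.0543% of the genes tested. The falls, 0.615%, were led by APOBEC3B, KPNA2, MRGBP and SLC41A3. With the replicate block 396 genes were called (3.58%), among them all 74. Of these 396, 30 were higher (0.271%) and 366 lower (3.31%). The median change over all genes tested was -0.07, and 58.7% of them were below 0. A bulk sample cannot tell fewer cells with a message from less of it per cell.

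IL6, a secreted inflammatory cytokine, read 7.25, 8.45 and 8.28 in the miR-195 IP and 5.97, 4.89 and 4.59 in the control IP. All 3 miR-195 arrays were above all 3 controls, as in 5.8% of the genes tested, with a rise of 2.84 ± 0.63 or 7.18-fold (adjusted p = 0.0371, limma). PLAU, the urokinase plasminogen activator, read 7.25, 7.78 and 8.79 against 5.40, 5.37 and 6.13. Its groups did not overlap, and it rose by 2.31 ± 0.50 (adjusted p = 0.0294, limma). THBS1, the matricellular protein thrombospondin-1, read 4.94, 5.66 and 6.91 against 3.64, 3.59 and 3.44. The miR-195 arrays spread over a wide range here while the controls lay close together, and the rise was 2.28 ± 0.48 (adjusted p = 0.0272, limma).

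CDH6, a classical cadherin of cell-cell adhesion, read 5.45, 5.42 and 6.21 against 4.16, 4.31 and 4.23, a rise of 1.46 ± 0.33 (adjusted p = 0.0381, limma). CCN1 and CCN2 encode matricellular proteins known as targets of the YAP coactivator. CCN1 read 4.14, 4.73 and 5.68 against 3.83, 3.31 and 3.48, a rise of 1.31 ± 0.30. CCN2 read 5.93, 6.38 and 6.56 against 5.55, 5.59 and 5.41, the smallest of the 6 rises at 0.78 ± 0.18. Neither pair of groups overlapped. None of the 6 was called in all 6 fits that left out 1 of the arrays compared, and all 6 were called with the replicate block.

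**Figure D1:**
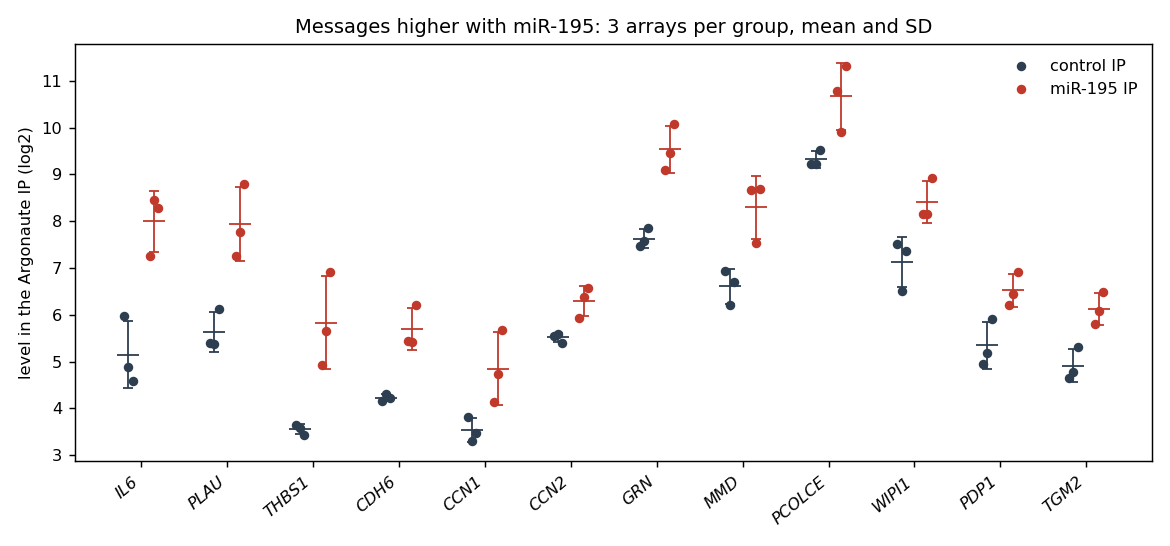
Level in the Argonaute IP (log2, vertical axis) of 12 messages in the 3 control arrays (dark) and the 3 miR-195 arrays (red); points are arrays, horizontal marks means and bars 1 SD. The 6 messages on the left were called on the deposited values, and the other 6 (GRN, MMD, PCOLCE, WIPI1, PDP1, TGM2) were called after cyclic loess and not on the deposited values; in all 12 the miR-195 arrays lie above the controls.

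The 6 messages that rose in the IP also rose in the lysate, where 6.82% of all genes were called higher. IL6 went from 6.61 ± 0.62 to 10.73 ± 0.66 in the lysate, a rise of 4.12 ± 0.75, which was larger than its IP change without a called difference (adjusted p = 0.722, limma interaction). PLAU moved by nearly the same amount in both fractions, 2.31 in the IP and 2.27 in the lysate. CCN1 and CCN2 rose less in the IP than in the lysate, where they gained 3.54 ± 0.37 and 3.03 ± 0.30. The difference of the changes was -2.24 ± 0.48 for CCN1 and -2.25 ± 0.35 for CCN2 (adjusted p = 0.00671 and 1.04e-04, limma interaction). Array means differ between the fractions, and a difference of changes carries any difference in scale between them.

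The IP values were also normalized by cyclic loess within the fraction, which removes shifts that follow intensity. On the deposited values the 2210 genes with the highest mean IP level, above 5.75, had a median change of -0.33, while the 2210 genes of middle level had 0.01. After loess the former had a median of 0.001. Calls went to 199 (1.8%), 43 higher (0.389%) and 156 lower (1.41%), against 6 and 68 on the deposited values. Of the 43 rises 35 lay among the 2210 genes of highest level. Among them were 5 of the 6 rises above, while CCN2 missed the threshold (adjusted p = 0.0543, limma after loess).

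Progranulin, GRN, is a secreted glycoprotein whose loss causes a frontotemporal dementia and whose message is a known target of miR-107. It read 9.08, 9.46 and 10.08 in the miR-195 IP and 7.46, 7.58 and 7.85 in the control IP. The groups were well apart, and the change of 1.91 ± 0.48 missed the threshold on the deposited values (adjusted p = 0.0683, limma). It was called with the replicate block (adjusted p = 0.00821), without miR-15b* replicate 1 (0.00944) and after loess, where the change was 2.57 (adjusted p = 1.63e-06). In the lysate GRN stood at 12.41 ± 0.23 with miR-195 and 12.23 ± 0.16 with the control. The change there was 0.18 ± 0.18 (adjusted p = 0.653, limma). The difference of its IP and lysate changes, 1.73 ± 0.53 on the deposited values, was not called (adjusted p = 0.1) and was called after loess at 2.37 (adjusted p = 5.12e-06).

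PCOLCE, an enhancer of procollagen processing, read 10.78, 9.91 and 11.32 against 9.22, 9.22 and 9.52. It changed by 1.35 ± 0.37 (adjusted p = 0.11, limma), and by 2.06 after loess (adjusted p = 9.98e-07); it was called with the replicate block (0.016) and without miR-15b* replicate 1 (0.0252). In the lysate it stood at 13.16 ± 0.24 and 13.24 ± 0.12. Like GRN, PCOLCE was higher in the IP with a lysate change of -0.08 ± 0.12 that was not called (adjusted p = 0.797). The difference of its IP and lysate changes, 1.43, was not called (adjusted p = 0.0689, limma interaction). It was called after loess at 2.13 (adjusted p = 3.64e-08).

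MMD, a membrane protein of the progestin and adipoQ receptor family, read 8.67, 7.53 and 8.68 against 6.94, 6.20 and 6.70. Its change of 1.68 ± 0.50 was called after loess (2.10, adjusted p = 9.22e-04) and without miR-15b* replicate 1 (adjusted p = 0.0111), and was 0.0546 with the block. Unlike GRN and PCOLCE, MMD also rose in the lysate, by 1.06 ± 0.15. For MMD the difference between the fractions was not called (adjusted p = 0.745, limma interaction), nor after loess (0.211). WIPI1, an autophagy protein, rose after loess by 1.76 and in the lysate by 1.21, and PDP1, a phosphatase that activates pyruvate dehydrogenase, by 1.40 and 1.47. On the deposited values WIPI1, PDP1 and TGM2, a transglutaminase, were not called without the block (adjusted p = 0.127, 0.23 and 0.191, limma) and were called with it (0.0126, 0.0126 and 0.0251). Of the 43 rises after loess, which were chosen after their values were seen, 24 were higher in the lysate, 3 lower and 16 not called, where the lysate called 14% of all genes. The difference of IP and lysate changes, also after loess, was called higher in 9 of the 43 and lower in 3, against 0.588% and 1.19% of all genes. The 43 were chosen on the IP change, which enters that difference.

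The falls came in more than 1 pattern across the 9 transfections. All 68 had the control among the 3 highest IP groups, and the control was the highest in 42. miR-195 was the lowest of the 9 in 16. Since the control arrays chose these genes, their rank is a description.

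In the first pattern the control IP alone was high. TAF12, a subunit of the general transcription factor TFIID, read 3.50, 3.30 and 3.40 in the miR-195 IP and 6.04, 5.99 and 6.42 in the control IP. The fall of 2.75 ± 0.21 had the lowest adjusted p of all genes (6.01e-08, limma). The means of the other 7 IP groups lay between 2.96 and 3.72, and the miR-195 mean of 3.40 ± 0.10 lay within that range. MRGBP, a subunit of the NuA4 histone acetyltransferase complex, read 5.50, 4.92 and 6.49 against 8.94, 8.67 and 9.48, 10.5-fold lower, and 5.13 to 6.25 in the means of the other groups. SLC41A3, a magnesium transporter family member, read 5.17, 4.89 and 5.39 against 8.12, 8.67 and 8.58. NPTN, the adhesion molecule neuroplastin, read 5.38, 6.27 and 6.68 against 8.27, 9.0 and 9.21.

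None of these 4 messages fell in the lysate. MRGBP rose there by 0.41 ± 0.09 and NPTN by 0.35 ± 0.11, while TAF12 changed by 0.23 ± 0.12 and SLC41A3 by -0.13 ± 0.14, which were not called. The IP change was below the lysate change in all 4, from -3.81 ± 0.43 for MRGBP to -2.99 ± 0.24 for TAF12 (adjusted p = 2.38e-07 and 2.69e-11, limma interaction). All 4 were called in each of the 6 fits that left out 1 array. With the mean of the negative control, miR-320 and miR-15b* as the comparison, the fall of MRGBP was 1.29 and was not called (adjusted p = 0.06).

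**Figure D2:**
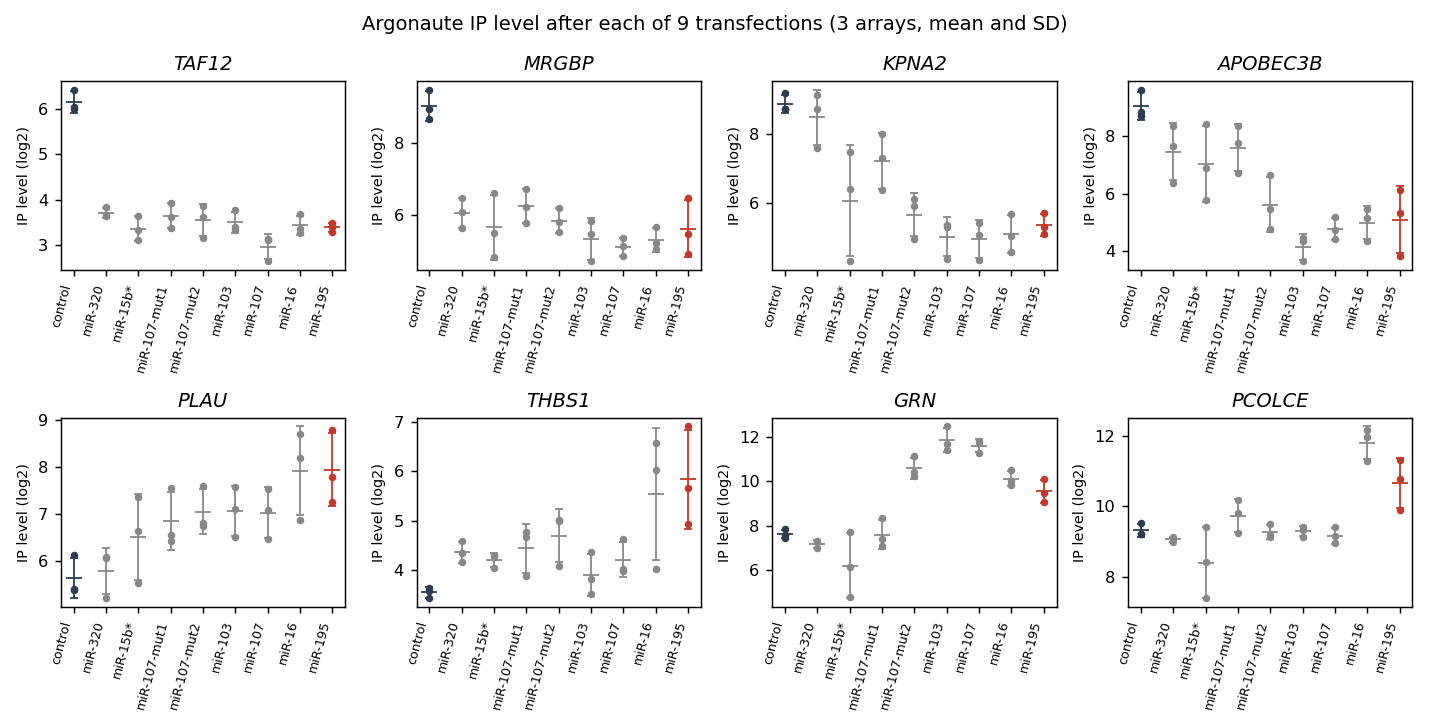
Argonaute IP level (log2, vertical axes) of 8 messages after each of the 9 transfections (horizontal axes), 3 arrays each with mean and SD; control in dark, miR-195 in red. TAF12 and MRGBP are high in the control alone, KPNA2 and APOBEC3B are also high with miR-320 and miR-107-mut1, PLAU and THBS1 have their highest means with miR-195 and miR-16, GRN is higher with miR-103 and miR-107 than with miR-195, and PCOLCE is high with miR-16 and miR-195.

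In the second pattern messages were high with the control, miR-320 and miR-107-mut1 and low with miR-195, miR-16, miR-103, miR-107 and miR-107-mut2. APOBEC3B, a cytidine deaminase, read 5.33, 3.82 and 6.12 against 8.86, 8.69 and 9.62 and had the largest fall, 3.97 ± 0.64 or 15.6-fold (adjusted p = 0.00258, limma). Its other means ran from 4.14 with miR-103 to 7.60 with miR-107-mut1. KPNA2, a nuclear import receptor, read 5.11, 5.31 and 5.74 against 8.72, 8.72 and 9.20, with 8.49 ± 0.80 in the miR-320 IP. CKS1B, an adapter of cyclin-dependent kinases, read 4.01, 4.42 and 5.12 against 7.05, 7.17 and 8.11, with 7.67 for miR-320 and 7.62 for miR-107-mut1.

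These 3 messages also fell in the lysate, APOBEC3B by 2.03 ± 0.35, CKS1B by 1.44 ± 0.15 and KPNA2 by 0.60 ± 0.14. For KPNA2 the IP fall exceeded the lysate fall (difference -2.89 ± 0.62, adjusted p = 0.00621, limma interaction), and for APOBEC3B and CKS1B the difference was not called (adjusted p = 0.267 and 0.313). ANXA1, DDT and SLC39A9 were also among the 12 largest falls, and their lysate changes were not called. The difference between the fractions was called for SLC39A9 (adjusted p = 0.0442, limma interaction). It was not called for ANXA1 and DDT (adjusted p = 0.0809 and 0.0662). ANXA1, a calcium-dependent phospholipid-binding protein, read 3.91, 3.31 and 3.42 against 5.63, 5.71 and 6.6. DDT, D-dopachrome tautomerase, read 4.75, 1.91 and 4.96 against 6.77, 6.25 and 6.21, and its replicate 2 lay far below the other miR-195 arrays. SLC39A9, a zinc transporter, read 4.76, 3.36 and 5.10 against 6.68, 6.45 and 7.30, with an adjusted p of 0.0483 (limma).

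**Figure D3:**
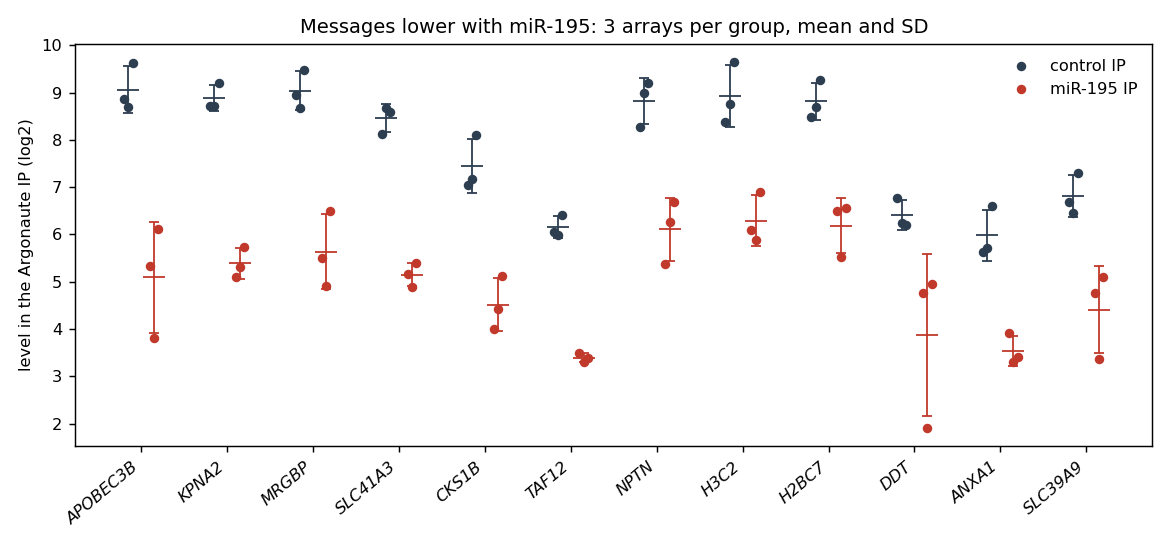
Level in the Argonaute IP (log2, vertical axis) of the 12 messages with the largest falls, in the 3 control arrays (dark) and the 3 miR-195 arrays (red); points are arrays, horizontal marks means and bars 1 SD. In all 12 every miR-195 array lies below every control array.

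Over all 68 falls the median IP change was -1.62, and the changes ran from -0.72 to -3.97. In the lysate 31 of the 68 were lower, 2 higher and 35 not called, where 7.22% of all genes were lower and 6.82% higher. The difference of the IP and lysate changes was called lower in 15 and higher in 1, against 0.787% and 0.335% of all genes. The 68 were chosen on the IP change, which enters that difference, so these counts follow in part from the choice. After loess 55 of the 68 were called, with the replicate block all 68, and 16 were called in each of the 6 fits that left out 1 array. In all 68, as in 11.6% of the genes tested, every miR-195 array was below every control array.

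**Figure D4:**
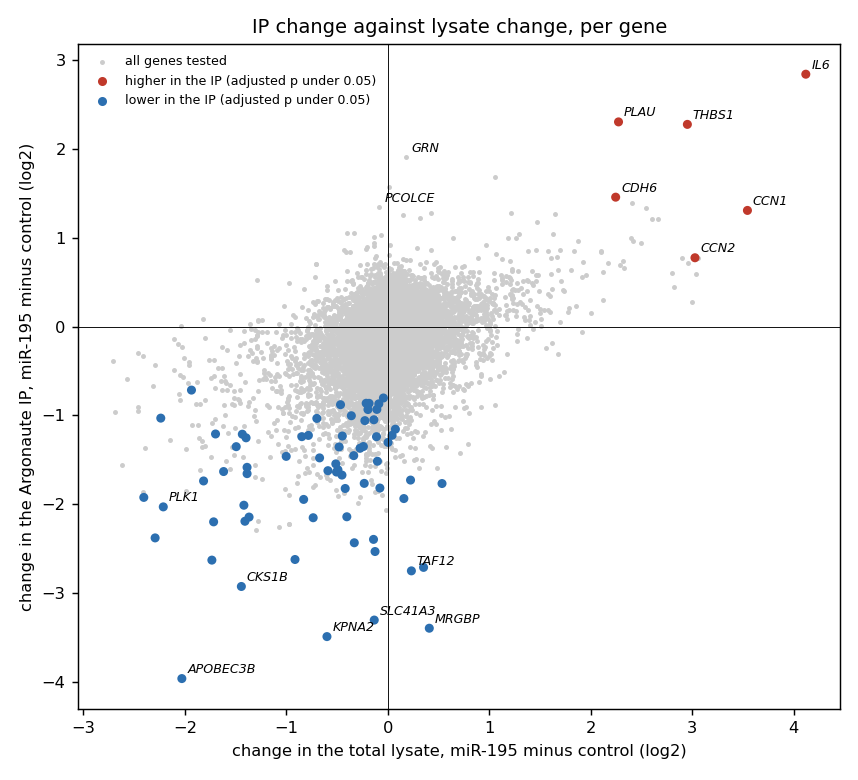
Change in the Argonaute IP (vertical axis) against change in the total lysate (horizontal axis), both miR-195 minus control in log2, 1 point per gene; grey are all 11050 genes tested, red the 6 called higher and blue the 68 called lower in the IP. The 6 red genes lie at the upper right, while TAF12, MRGBP and SLC41A3 lie near 0 on the horizontal axis.

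Replication-dependent histones, which package newly made DNA and are expressed in S phase, had 9 falls and no rise among 26 genes tested, against 0.615% of all genes called lower. All 26 were below 0, against 58.7% of all genes, with a median of -1.38 against -0.07. H3C2 read 6.09, 5.89 and 6.90 against 8.38, 8.76 and 9.64. H2BC7 read 6.49, 5.52 and 6.56 against 8.49, 8.70 and 9.26. The linker histone H1-4, an abundant message in both groups, read 9.87, 9.76 and 10.09 against 11.27, 11.26 and 11.64. The other 6 were H2AC6, H2BC5, H2BC9, H3C8, H3C10 and H4C8, which fell by 1.03 to 1.95. In the lysate 23 of the 26 were lower (7.22% of all genes), with a median of -1.06. The difference between the fractions was called for none, where it was for 1.12% of all genes, so this count is near the background. After loess 11 of the 26 were lower in the IP with a median of -1.07, against 1.41% of all genes. Of the 9, H1-4 and H2BC9 were no longer called after loess, at -0.66 and -0.94 (adjusted p = 0.406 and 0.108, limma). With the replicate block 17 of the 26 were called lower, against 3.31% of all genes. Without miR-15b* replicate 1 13 were, against 169 of all 11050 genes. Histone genes are near-identical copies, so their probe sets may share signal.

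Among mitosis genes 3 of 24 tested fell in the IP (median -0.94; 0.615% of all genes), while 23 fell in the lysate (median -1.95; 7.22% of all genes). PLK1, a kinase that drives mitotic entry, read 5.18, 4.89 and 5.59 against 6.74, 7.26 and 7.75. CDC25C, the phosphatase that activates CDK1, read 4.25, 3.03 and 4.08 against 5.96, 5.26 and 6.74. UBE2C, the ubiquitin-conjugating enzyme of the anaphase-promoting complex, fell by 1.21 ± 0.27. DNA replication genes had 1 fall of 28 in the IP, GINS1 of the replicative helicase (-1.21 ± 0.28, list median -0.46). They had 26 falls in the lysate (median -1.20), against 7.22% of all genes. The G1 to S list had 1 fall of 23 in the IP, CKS1B, against 0.615% of all genes. After loess 8 mitosis, 3 replication and 1 G1 to S genes were lower in the IP, against 1.41% of all genes. The replicate block gave 11, 5 and 4 of them, against 3.31% of all genes. Leaving out miR-15b* replicate 1 gave 5, 3 and 1, against 169 of all 11050 genes. The standard error was smaller in the lysate than in the IP for 9472 of the 11050 genes. The IP change was above the lysate change in 6 of the 24 mitosis genes and 3 of the 28 replication genes (limma interaction), against 0.335% of all genes. It was below the lysate change in none of them, against 0.787% of all genes. For the other mitosis and replication genes the difference between fractions was not called.

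The difference between fractions was called for 124 genes (1.12%), 37 of them with a higher IP change (0.335%) and 87 with a lower one (0.787%). Of the 37, 36 had fallen in the lysate, against 7.22% of all genes, and 0 had risen in the IP, against 0.0543%. They included TOP2A, the mitotic topoisomerase, which read 2.51, 2.62 and 2.44 in the miR-195 IP and 2.61, 2.47 and 2.48 in the control IP while its lysate level fell by 2.04 ± 0.34. SPAG5, a spindle protein, and the cadherins CDH10 and CDH7 followed the same course, with lysate changes of -2.41, -2.71 and -2.46 and IP changes of -0.33, -0.39 and -0.30. These 37 messages were low in the control IP to begin with, at a median of 3.70 against 4.64 over all genes tested. The part of that low level in the result was not tested. Of the 87, 65 had risen in the lysate, against 6.82% of all genes, and 15 had fallen in the IP, against 0.615%. Their median in the control IP, 4.39, was also below that over all genes tested, and its part was not tested. Both sets were chosen on the IP change minus the lysate change. These directions therefore follow in part from the choice, and the counts are a description.

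The machinery of microRNA action had 2 falls and no rise among 37 genes tested, against 0.615% of all genes called lower, and 4 falls with the replicate block (3.31%). PABPC1, the cytoplasmic poly(A)-binding protein, read 6.92, 5.67 and 7.20 against 9.23, 8.24 and 8.75, a fall of 2.14 ± 0.43. ZFP36L1, which directs AU-rich messages to decay, read 7.61, 6.41 and 7.06 against 9.08, 8.43 and 8.88, a fall of 1.77 ± 0.33. PABPC1 changed in the lysate by -0.40 ± 0.21 and ZFP36L1 by -0.23 ± 0.10, neither called. The difference between the fractions was not called for PABPC1 (adjusted p = 0.0712, limma interaction). For ZFP36L1 it was called on the deposited values (0.014) and not after loess (0.0668). The Argonaute genes AGO1, AGO2 and AGO3 changed by -0.27 ± 0.44, -0.68 ± 0.40 and -0.06 ± 0.20 in the IP and were not called. AGO4 did not pass the filter on low values.

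No published target on the list for the miR-195 seed was called in the IP against the control, among 33 tested. The share over all genes was 0.67%, so none in 33 is near the background. The median of the 33 was -0.22, and 21 were below 0, against 58.7% of all genes. Cyclin D1, CCND1, read 6.30, 6.57 and 6.68 against 5.90, 6.26 and 6.25, and CCNE1 6.28, 5.96 and 6.72 against 6.0, 5.75 and 6.36. Their changes were 0.38 ± 0.29 and 0.28 ± 0.30. The checkpoint kinases WEE1 and CHEK1 changed by -0.47 ± 0.35 and -0.52 ± 0.23 and the kinase CDK6 by -0.34 ± 0.26. The survival factor BCL2 changed by 0.28 ± 0.19 and the beta-secretase BACE1 by -0.57 ± 0.36. Against miR-103 and miR-107, CCNE1 was higher with miR-195 by 1.11 (95% interval 0.57 to 1.64), uncalled on the deposited values. After loess 1 of the 33 was called higher in that comparison, where 9 of all 11050 genes were. Against miR-320 and miR-15b* after loess 1 was higher and 2 lower, where 86 and 355 of all genes were. In the lysate 5 of the 33 were higher and 10 lower, against 6.82% and 7.22% of all genes. WEE1 (-0.88 ± 0.17), CDK6 (-0.67 ± 0.16), BACE1 (-0.77 ± 0.10) and CCNE1 (-0.46 ± 0.16) were lower there, and CCND1 was higher (0.82 ± 0.24). Of 20 tested targets of miR-103 and miR-107 none was called in the IP against the control on the deposited values (0.67% of all genes). After loess, with the replicate block and without miR-15b* replicate 1, GRN was the 1 called.

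Messages of cytosolic ribosomal proteins had a median of -0.60 with 52 of 55 below 0, against 58.7% of all genes, and RPLP1 was the 1 called (-1.35 ± 0.31, adjusted p = 0.0398, limma). After loess the median was -0.16 and none was called. With the replicate block 6 were called lower, against 3.31% of all genes. Without miR-15b* replicate 1 4 were, against 169 of all 11050 genes. Oxidative phosphorylation genes had a median of -0.50, and -0.30 after loess, with 0 of 37 called under either. Without miR-15b* replicate 1, 1 of them was called lower. The actin cytoskeleton list had a median of -0.33 on the deposited values and 0.05 after loess, so it had no fixed direction. Of its 36 genes 1 was called higher after loess, against 0.389% of all genes. With the replicate block 1 was called lower, as was 1 without miR-15b* replicate 1. In the extracellular matrix list the 3 rises of 45 were THBS1, CCN1 and CCN2 (median 0.02), against 0.0543% of all genes called higher, and 5 rose with the replicate block (0.271%). Without miR-15b* replicate 1, 4 rose, against 15 of all 11050 genes. In the lysate 14 of the 45 rose, against 6.82% of all genes. The interferon list had 1 fall of 25, APOBEC3B, against 0.615% of all genes called lower.

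On the deposited values several lists had no gene called in the IP against the control, where 0.67% of all genes were. They were sterol synthesis (19 tested), the unfolded protein response (23), p53 targets (20), TGF-beta and activin signalling (31) and the lysosome (40). The others were Alzheimer disease genes (24), membrane and cell surface genes (21), and FGF, insulin and RAS-MAPK signalling (29). Counts of 0 in lists of this size are near the background. After loess the unfolded protein response had 1 gene higher and 1 lower (MANF and PDIA6), and TGF-beta signalling 1 higher (TGFBR1). The lysosome then had 2 higher (GRN and CTSA), Alzheimer disease genes 1 (GRN) and membrane genes 1 (MMD). Over all genes 0.389% were higher after loess and 1.41% lower. With the replicate block 1 sterol synthesis gene, 2 of the unfolded protein response, 1 p53 target and 2 lysosome genes were lower. The share over all genes was 3.31%, so these counts are near the background. In the same fit 1 gene of TGF-beta signalling was higher (TGFBR1), against 0.271% of all genes. The lysosome and the Alzheimer list also had 1 higher each, which was GRN in both. The marker lists had none under any of these settings, with 8 neuronal, 12 glial and 2 blood genes tested.

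**Figure D5:**
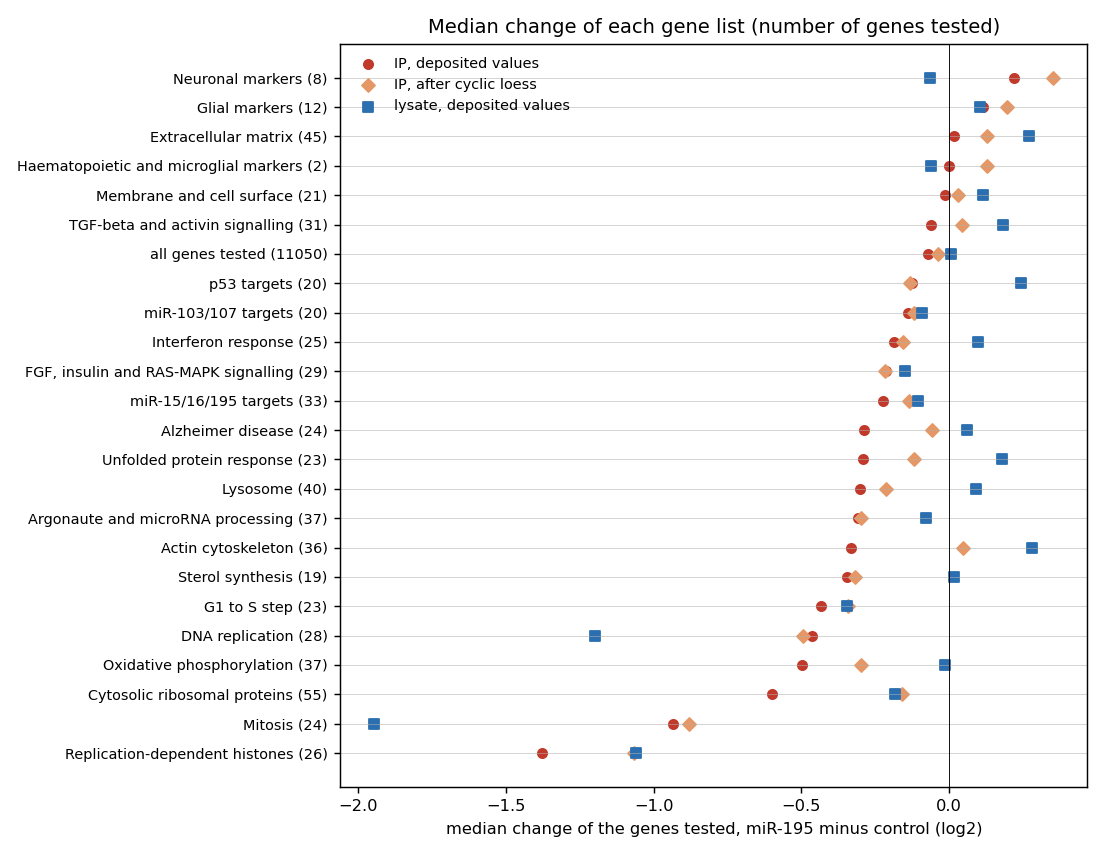
Median change of the genes of each list, miR-195 minus control in log2 (horizontal axis), with the number of genes tested in brackets; circles are the IP on the deposited values, diamonds the IP after cyclic loess and squares the lysate. Replication-dependent histones have the lowest IP median (-1.38) and mitosis genes the lowest lysate median (-1.95); the actin list changes sign with loess.

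Against miR-16, which has the same seed, no gene was called in the miR-195 IP (0%), with 125 genes at an unadjusted p under 0.05. After loess 1 gene was called, lower with miR-195, and it was on the extracellular matrix list. The 95% interval of a difference, which is not adjusted for the number of genes, had a median half-width of 0.55 over the genes tested. Calls rest on the adjusted p, so differences larger than 0.55 can also go uncalled, and no call does not show that the 2 groups are the same. PLAU differed by 0.03 with an interval of -1.01 to 1.06, THBS1 by 0.30 (-0.70 to 1.29), and TAF12 by -0.04 (-0.47 to 0.40). GRN differed by -0.57 (-1.55 to 0.42). PCOLCE read 11.98, 11.28 and 12.16 with miR-16, its lowest array just below the highest of miR-195. The difference was -1.14 (-1.91 to -0.37), which did not hold after adjustment on the deposited values. The value of PCOLCE against miR-16 after loess is not given here. The interval of DDT, -2.67 to -0.28, also left out 0.

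Against miR-103 and miR-107, whose seed is shifted by 1 base, 19 genes were called (0.172%), 4 higher (0.0362%) and 15 lower (0.136%) with miR-195. The falls were led by IER3IP1, an endoplasmic reticulum protein, with 4.79, 4.69 and 5.18 for miR-195. It read 9.84, 10.03 and 9.30 for miR-103 and 8.56, 9.30 and 9.97 for miR-107, far above every miR-195 array. The difference was -4.62 ± 0.33 (adjusted p = 2.06e-08, limma). The control IP had 5.92 ± 0.77, so IER3IP1 was high with miR-103 and miR-107 and not with miR-195. GUCD1, the nucleoside transporter SLC29A3 and LDOC1 were lower by 2.67, 2.47 and 2.17.

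GRN was lower with miR-195 than with miR-103 and miR-107, by 2.17 ± 0.41 (adjusted p = 0.0251, limma). Its order over the IP groups ran from miR-103 (11.85 ± 0.55), miR-107 (11.58 ± 0.29), miR-107-mut2 (10.57 ± 0.48) and miR-16 (10.11 ± 0.34) to miR-195 (9.54 ± 0.50). It then went on to the control (7.63 ± 0.20), miR-107-mut1 (7.60 ± 0.66), miR-320 (7.19 ± 0.17) and miR-15b* (6.21 ± 1.46). The difference between the neighbours miR-16 and miR-195 was not called, nor did control and miR-107-mut1 differ beyond their spread. The 4 messages higher with miR-195 were MT2A, a metallothionein (1.46 ± 0.26), DYNLT1, a dynein light chain (1.76 ± 0.38), ZDHHC12 (1.27 ± 0.28) and CHCHD10, a mitochondrial protein (1.01 ± 0.21). None of these 4 was called against the control IP, where their changes were -1.0 to -0.21. MT2A and CHCHD10 turned to 0.60 and 0.52 against the control after loess, still uncalled.

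Of the 6 rises over the control, none was called against miR-103 and miR-107 on the deposited values without the block. IL6 differed by 2.51 (1.38 to 3.65) and THBS1 by 1.77 (0.91 to 2.64), with adjusted p of 0.0703 and 0.133 (limma), and PLAU by 0.90 (0.01 to 1.79). PCOLCE read 9.14, 9.43 and 9.34 with miR-103 and 9.41, 8.96 and 9.15 with miR-107, all below each miR-195 array. Its difference was 1.43 ± 0.32 (adjusted p = 0.0954, limma). After loess 9 of the 11050 genes were called higher with miR-195 than with miR-103 and miR-107, 2 of them on the extracellular matrix list. With the replicate block 21 were called higher. The calls of the 6 rises and of PCOLCE under these 2 settings are not given here.

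Against the mean of miR-320 and miR-15b*, which serve as other small RNAs outside the group, 159 genes were called (1.44%), 30 higher (0.271%) and 129 lower (1.17%). GRN led the rises at 2.84 ± 0.41 (adjusted p = 5.44e-04, limma), followed by MMD at 2.27 ± 0.43, SCARNA16 at 1.93 (1.28 against the control, adjusted p = 0.323, and 0.0475 with the replicate block), PCOLCE at 1.93 ± 0.32 and the small nucleolar RNA SNORD58A at 1.76. The falls were led by LSM2, a subunit of the ring that binds U6 RNA and decaying messages. LSM2 read 5.96, 5.43 and 6.32 with miR-195, 11.05 ± 0.05 (SD, n = 3) with miR-320 and 8.58, 10.03 and 10.50 with miR-15b*. With the control it read 7.46, 7.11 and 7.55, and the change of -1.48 ± 0.38 was not called (adjusted p = 0.0856, limma), though it was with the replicate block (0.0126) and after loess (-1.05, adjusted p = 0.0329). DDT, CXCL2, GPAT3 and KNSTRN followed, at -2.78, -2.53, -1.68 and -1.63. Among the rises over the control, PLAU (1.80) and CDH6 (1.41) were also called here (adjusted p = 0.0342 and 0.00875, limma). IL6 (1.34), THBS1 (1.55) and CCN1 (0.98) were not (adjusted p = 0.294, 0.0655 and 0.0546, limma). The value of CCN2 is not given here. For IL6 the miR-195 mean ranked 2 among the 9 IP groups.

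The comparison groups did not weigh alike. With miR-320 alone 600 genes were called (5.43%), 37 higher (0.335%) and 563 lower (5.1%). With miR-15b* alone 8 were called (0.0724%), 6 higher (0.0543%) and 2 lower (0.0181%). Without miR-15b* replicate 1, the array that stood apart, calls numbered 385 (39 up, 346 down). The replicate block gave 448 (85 up, 363 down). The same miR-195 arrays enter this and every other comparison, so these counts are not independent of those against the control.

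The 74 calls against the control depended on single arrays. They were 16 without control replicate 3, 21 without miR-195 replicate 2, 36 without miR-195 replicate 1, 66 without miR-195 replicate 3, and 39 and 45 without control replicates 1 and 2. None of the 6 rises was called without control replicate 2, control replicate 3 or miR-195 replicate 2. Against miR-103 and miR-107 the count was 4 without miR-195 replicate 2, and against miR-320 and miR-15b* it was 34. Without miR-15b* replicate 1 they were 184, 15 higher and 169 lower, with all 74 among them. When only the 6 arrays compared set the spread, 27 genes were called, 2 higher and 25 lower.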

How the data were processed

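RNA of both fractions was hybridised to Human Gene 1.0 ST arrays (Affymetrix), per the labels' protocols. The authors deposited RMA values, read here as log2 intensities; the submitters' processing notes name Affymetrix Expression Console 1.1. The log base, and whether the fractions were normalized together, are not given in the sources used here. Array number limits the precision.

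The array's 33297 probe sets divided into 19460 with a single symbol, 1754 with more and 12083 without. Symbols were updated by gene ID for 19429 and kept for 31. For 769 genes with several probe sets the one with the highest mean was used. A filter removed 7367 of 18417 genes, the lowest 40% by their mean across the 54 arrays (under 5.26).

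limma 3.58.1 (R 4.3.3) fitted the 27 IP arrays in 9 groups, the 27 lysates likewise, and all 54 arrays in 18 groups for the difference between fractions. Cyclic loess ran within each fraction. Blocks, leave-one-out fits and other settings are in the closing section. The fits were tested on simulated data. No 2 arrays held the same values (highest correlation 0.9968). Replicates are biological per the labels.

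Named genes are the 12 largest rises and falls against the control that were called with arrays of both groups apart (all 6 rises), 5 each way for the other fits, every called list member, the Argonautes and 8 chosen genes; those named after loess were chosen on their values. Members and lists were chosen with earlier results of these data known. Seed sites were not analysed here. Figures used matplotlib 3.10.9 (Python 3.11.15).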

Additional observations from a re-analysis of the deposited data

Results flagged for a closer look

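For 17 of the named genes the change in the IP differed from the change in the lysate (limma interaction, adjusted p under 0.05). Some of these genes were named for having the largest differences called in this same fit. Others were named on their IP or lysate change, which enters the difference. The 17 therefore follow in part from the choice and cannot be weighed against the 1.12% called over all genes tested. The difference, IP change minus lysate change, was -3.81 for MRGBP, -3.17 for SLC41A3, -3.07 for NPTN and -2.99 for TAF12, whose IP level was high in the control alone. It was -2.89 for KPNA2, -2.26 for SLC39A9 (adjusted p = 0.0442) and -1.53 for ZFP36L1, which fell more in the IP. After loess the difference was still called for 16 of the 17, and not for ZFP36L1 (-1.07, adjusted p = 0.0668, limma interaction). It was -2.45 for the hyaluronidase CEMIP2, -2.29 for the transcription factor TFAP2C, -2.25 for CCN2 and -2.24 for CCN1, which rose more in the lysate. CEMIP2, TFAP2C and CCN1 were low in the control IP, at 4.01, 3.48 and 3.54, against a median of 4.64 over all genes tested. CCN2 stood at 5.52. It was 1.73 for AOAH, 1.98 for CAPN6, 2.05 for TOP2A, 2.08 for SPAG5, 2.17 for CDH7 and 2.32 for CDH10, which fell more in the lysate and were low in the IP of both groups.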

How the results depend on the processing

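Genes called against the control IP (74) became 199 with cyclic loess, 27 with only the arrays compared, 537 with array quality weights, 396 with the replicate block, 128 with the mean of 3 controls, 184 without miR-15b* array 1 (added after seeing the data) and 16 to 66 when 1 array was left out. Against miR-320 and miR-15b* (159) the counts were 441, 3, 298 and 448 for the first 4 of these settings, 34 to 385 with 1 array left out, and, added after seeing the data, 600 and 8 against each alone. Against miR-16 (0) the count was 1 with loess and 0 under the other settings run, also with 1 array left out. Against miR-103 and miR-107 (19) it was 44 with loess, 43 with weights, 43 with the replicate block, where the numbers did not pair every group, and 4 to 16 with 1 array left out. The difference between fractions (124) gave 274 with no filter, 63 without the lowest 60%, 196 with loess and 1817 with weights. It gave 126 when the lysate was subtracted from the IP of the same replicate number. The deviations of miR-195 IP and lysate arrays correlated at only 0.12, 0.11 and 0.02 between equal numbers. Without miR-15b* array 1 the count was 204, and with 1 array left out it was 72 to 244. The lysate comparison (1552) gave 5963 with weights, 2245 with the replicate block and 1030 to 1513 with 1 array left out. The other settings run kept each count within 1.5 times. Changes against the control IP that turned sign were all uncalled: after loess MT2A (0.60), CHCHD10 (0.52) and TOP2A (-0.0726), with weights TOP2A (-0.0044), with the mean of 3 controls ZDHHC12 (0.0733), CHCHD10 (0.0046), TOP2A (-0.22) and AGO3 (0.0553), and with 1 array left out TOP2A (-0.0415 to 0.0528) and AGO3 (-0.1876 to 0.0671). Signal over background was not analysed here.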

Other observations

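After loess the rises in the IP also took in SNORD116-26, SNORD116-25, ALG3, TGM2 and ACTG1, named here after their values were seen. SNORD116-26 read 7.40, 8.0 and 6.84 in the miR-195 IP and 6.43, 6.12 and 6.55 in the control IP, a change of 1.05 ± 0.34 on the deposited values that was not called, and was called after loess (1.38, adjusted p = 0.0291, limma; 0.0507 with the replicate block). SNORD116-25 read 7.09, 7.77 and 6.79 against 6.23, 6.05 and 6.35. Neither pair of groups overlapped, and in the lysate their changes of -0.34 and -0.14 were not called. Nor was the difference between the fractions (adjusted p = 0.224 and 0.451, limma interaction), also after loess (0.069 and 0.163). ALG3, a mannosyltransferase of N-glycan assembly, read 10.76, 10.67 and 11.16 against 10.53, 9.72 and 10.15, with 1.54 after loess (adjusted p = 0.0151) and a lysate change of -0.08 ± 0.15. For ALG3 the difference between the fractions was not called (adjusted p = 0.313, limma interaction) and was called after loess (0.0135). TGM2, a transglutaminase, and ACTG1, a cytoplasmic actin, rose after loess by 1.38 each and rose in the lysate by 2.67 and 0.89.

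Among the genes that changed most in the lysate, TFAP2C and CEMIP2 rose there by 3.06 and 3.04, and their IP changes of 0.77 ± 0.29 and 0.59 ± 0.38 were not called. AOAH, KIF20A and CAPN6 fell there by 2.69, 2.62 and 2.57, with IP changes of -0.96 ± 0.25, -1.56 ± 0.49 and -0.59 ± 0.24 that were not called on the deposited values. AOAH and KIF20A were called lower in the IP with the replicate block (adjusted p = 0.0369 and 0.0126, limma), and AOAH also after loess (-1.01, adjusted p = 0.0291).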
